A study of Rattus norvegicus with 18 samples.

Results

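A set of 79 rat bladder genes had lower RNA levels in the detrusor and higher RNA levels in the mucosa of rats with spinal cord injury given vehicle (SCI-vehicle) than in those of uninjured rats (Control). The members were chosen by their CPM, a gene's read count scaled to the total count of its library, in the 12 Control and SCI-vehicle libraries. A gene was kept when its highest SCI-vehicle detrusor library lay below its lowest Control detrusor library and its lowest SCI-vehicle mucosa library lay above its highest Control mucosa library. It also needed more than 1 CPM in at least 3 of 18 libraries, and mean Control levels of the 2 tissues within 16-fold of each other after 0.5 CPM was added. The table held 32754 genes, of which 15740 passed the level filter and 15405 also lay within the window of 16-fold. The 79 members were 0.513% of these 15405 genes. Because these values chose the members, SCI-vehicle against Control is described here without a test in either tissue.

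The libraries came from male Sprague Dawley rats, labelled wild type and all of batch 1. Control rats had no injury. SCI-vehicle and SCI-inosine rats had a complete transection of the spinal cord at the eighth thoracic vertebral level, followed by daily intraperitoneal injection for 8 weeks of a sodium bicarbonate buffer (12 mM, pH 9.2) or of inosine (225 mg/kg/day). They were 6 to 7 weeks old and weighed about 250 g at transection, and their bladders were taken once treatment had ended. Each bladder was dissected into detrusor, the smooth muscle layer, and mucosa, the urothelium with the lamina propria, and each of the 6 groups held 3 libraries. The labels do not tie libraries to animals, so p-values here measure the spread between these samples, and whether a mucosa and a detrusor library came from one bladder is not known. The libraries held 3255012 to 6810496 counts (median 5030414).

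The detrusor is the contractile wall of the bladder. The mucosa lines the lumen, with a barrier epithelium over a connective tissue that carries vessels, nerves and immune cells. After spinal cord transection the brain no longer coordinates filling and voiding, and the wall is remodelled over the following weeks. Inosine is a purine nucleoside formed from adenosine. In bulk tissue of either layer, fewer cells of a type and less RNA per cell cannot be told apart.

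The files list the genes by Ensembl identifier and do not pair these with names, and no pairing was used here. The members are therefore described by their values, without roles, positions or sequences, and identifiers are printed for only 2 of them, the 2 with the largest sum of absolute changes over both tissues. The tissue labels could not be set against named marker genes for the same reason.

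The combination was a small part of what differed between SCI-vehicle and Control. Within the window, 1240 genes lay lower in SCI-vehicle detrusor without overlap (8.05%) and 1652 lay higher in SCI-vehicle mucosa without overlap (10.7%). The 79 members were 6.37% of the first set and 4.78% of the second. The opposite combination, higher in detrusor and lower in mucosa, was met by 165 genes. The window itself removed 0 genes that met both conditions.

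The members were expressed at moderate levels in both tissues. The median over members of the mean level was 23.3 CPM in the 12 Control and SCI-vehicle libraries, against 18.6 CPM over all genes in the window. In detrusor, the median of the group means was 21.4 CPM in Control, 16.3 CPM in SCI-vehicle, with 18.5 CPM in SCI-inosine. In mucosa it was 22.4, 28.6 and 26.3 CPM. In both tissues the SCI-inosine median lay between those of the other groups, which were extreme by choice, so nothing is read from its position. The range of levels was wide, with 4 members above 100 CPM on average and 7 members under 2 CPM. In 20 members, at least 1 of the 12 libraries of the rule held fewer than 10 counts, and 47 members had 50 or more counts in each of them.

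**Figure D1:**
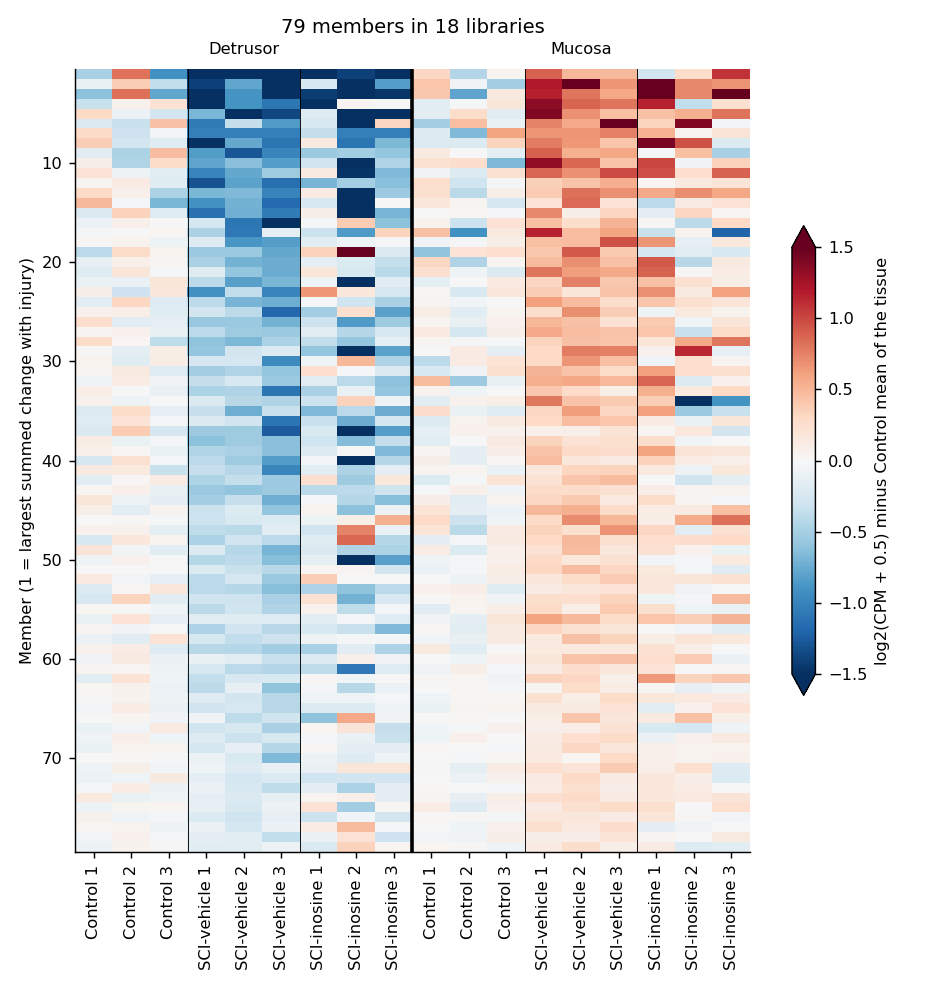
Each row is 1 of the 79 members, ordered from the largest (1) to the smallest summed change of SCI-vehicle against Control, and each column is 1 of the 18 libraries. Colour is log2(CPM + 0.5) minus log2(Control mean of the tissue + 0.5), limited to the range shown. The blue SCI-vehicle detrusor and red SCI-vehicle mucosa columns are what the members were chosen for, and the SCI-inosine columns are mixed in both tissues.

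Most members differed from Control by modest amounts. On the scale of log2(mean CPM + 0.5), SCI-vehicle minus Control ran from -1.99 to -0.12 in detrusor (median -0.48, against 0.05 over all genes in the window). In mucosa the difference ran from 0.12 to 1.17 (median 0.36, against 0.05 over all genes). The mean SCI-vehicle level was at or under 0.5 times Control in 15 members in detrusor, and at least 2 times Control in 11 members in mucosa. Members with a deeper difference in detrusor tended to have a larger one in mucosa, with a correlation of -0.64 over the 79 members. This is a description across genes measured in the same 12 libraries, and the members with low counts held most of the largest changes, since all 7 members under 2 CPM were among the first 11 by summed change.

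Many members cleared the rule narrowly. The smaller of a member's 2 gaps between groups had a median of 0.05 on the log2(CPM + 0.5) scale and was over 0.1 in 19 members, over 0.2 in 5 and over 0.3 in 3. The narrowest member had a highest SCI-vehicle detrusor value of 39.1139 CPM against a lowest Control value of 39.1177 CPM. The gene closest outside the rule had a highest Control mucosa value of 88.9211 CPM against a lowest SCI-vehicle mucosa value of 88.8778 CPM.

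ENSRNOG00000061982 had the largest summed change, and its counts were low. In detrusor its CPM in replicates 1 to 3 was 5.03, 13.1 and 3.66 in Control (mean 7.28 ± 5.13, SD, n = 3). It was 1.57, 1.27 and 1.52 in SCI-vehicle, with 1.03, 2.46 and 1.89 in SCI-inosine. One Control library thus lay far above the other 2, and all injured detrusor libraries lay below every Control library. In mucosa it was 0.643, 0.178 and 0.447 in Control, 1.20, 0.804 and 0.792 in SCI-vehicle, with 0.260, 0.614 and 1.46 in SCI-inosine, from 1 to 6 counts a library. The SCI-inosine mucosa libraries overlapped both other groups.

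ENSRNOG00000054319, the second by summed change, was measured at higher levels. In detrusor its CPM was 24.4, 33.9 and 20.2 in Control (mean 26.2 ± 7.01, SD, n = 3), 9.63, 15.0 and 7.91 in SCI-vehicle, with 22.0, 7.98 and 14.5 in SCI-inosine. In SCI-inosine 1 library lay within the Control range and the other 2 within the SCI-vehicle range. In mucosa it was 2.14, 1.42 and 0.894 in Control, 4.07, 5.23 and 2.64 in SCI-vehicle, with 5.46, 2.76 and 2.67 in SCI-inosine. The mucosa values rest on low counts, from 4 to 26 a library. All SCI-inosine mucosa libraries lay above Control, within or above the SCI-vehicle range.

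**Figure D2:**
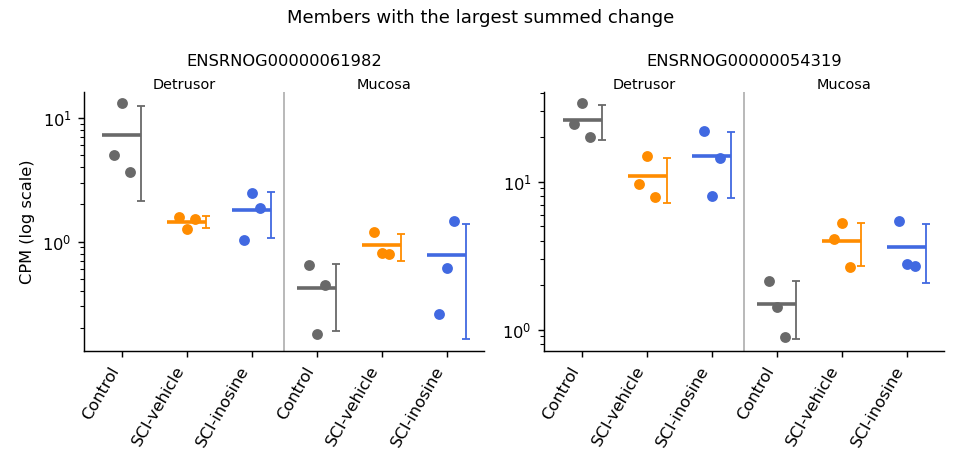
CPM on a log axis for ENSRNOG00000061982 (left) and ENSRNOG00000054319 (right), with 1 point per library, a horizontal line at each group mean and a bar for the SD of 3 libraries. Both have a higher mean in detrusor than in mucosa in all 3 conditions, and the means lie closer together in the injured groups than in Control.

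At the other end of the range stood the member with the highest level, which differed little in proportion. Its CPM in detrusor was 367, 407 and 353 in Control, 352, 318 and 288 in SCI-vehicle, with 341, 269 and 340 in SCI-inosine. In mucosa it was 455, 448 and 445, then 485, 531 and 482, then 503, 486 and 450 in the same order of groups. The SCI-inosine detrusor libraries all lay below Control, and its mucosa libraries overlapped Control.

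The next comparison asked where SCI-inosine lay between Control and SCI-vehicle. The mean of SCI-inosine lay between the means of Control and SCI-vehicle for 52 members in detrusor and 61 in mucosa, and for 43 members in both tissues. In detrusor it was at or above Control in 13 members and at or below SCI-vehicle in 14. In mucosa it was at or below Control in 11 members and at or above SCI-vehicle in 7. The mean of SCI-inosine was below Control in detrusor for 66 members (40.4% of all genes in the window), above Control in mucosa for 68 (48.4%), and both for 59 (19.6%). The member medians were -0.25 for SCI-inosine minus Control in detrusor (0.09 over all genes in the window) and 0.13 in mucosa (-0.01 over all genes). For SCI-inosine minus SCI-vehicle they were 0.23 in detrusor (0.03 over all genes) and -0.19 in mucosa (-0.07 over all genes). These differences share the Control or SCI-vehicle libraries that chose the members, which were extreme there by choice, so nothing is read from their direction.

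**Figure D3:**
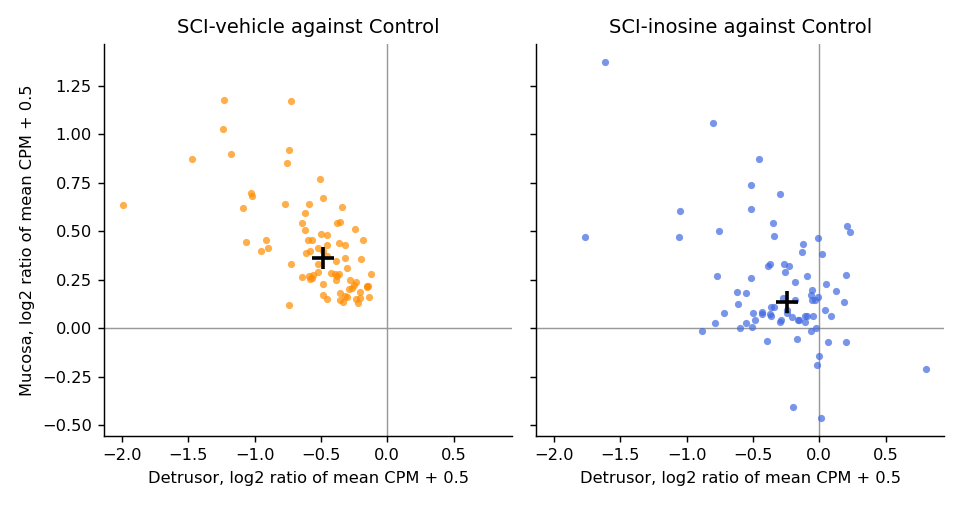
Each point is 1 of the 79 members, with the difference from Control in detrusor on the horizontal axis and in mucosa on the vertical axis, both as the log2 ratio of mean CPM + 0.5, for SCI-vehicle (left) and SCI-inosine (right). The cross is the median, at -0.48 and 0.36 on the left and at -0.25 and 0.13 on the right, and the left panel holds points in 1 quadrant only because the members were chosen so.

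Single libraries were compared in the same way, again with Control and SCI-vehicle libraries that were extreme by choice, so nothing is read from these counts. SCI-inosine lay below Control without overlap in detrusor for 22 members (6.00% of all genes in the window did so) and above Control without overlap in mucosa for 19 members (4.23% of all genes). Both held for 2 members (0.195% of all genes), and neither for 40. Against SCI-vehicle, SCI-inosine lay higher without overlap in detrusor for 15 members (5.70% of all genes), lower without overlap in mucosa for 20 members (8.12%), and both for 5 members (0.247%).

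Counts in the other directions were small, but the choice of members by extreme libraries bears on them too, so nothing is read from them. SCI-inosine lay above Control without overlap in detrusor for 0 members (11.8% of all genes) and below Control in mucosa for 1 member (6.05%). It lay below SCI-vehicle in detrusor for 2 members (3.39%) and above SCI-vehicle in mucosa for 0 members (3.13%). Set beside all 1240 window genes lowered in SCI-vehicle detrusor, SCI-inosine stayed below Control without overlap in 27.8% of members and in 39.1% of those genes. Set beside all 1652 genes raised in SCI-vehicle mucosa, it stayed above Control in 24.1% of members and in 15.6% of those genes. The members are among the genes in both of these sets, and no test of these shares was made.

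The 5 members in which SCI-inosine left the SCI-vehicle range in both tissues, toward Control, included some at moderate levels. One had detrusor CPM of 29.4, 31.0 and 25.1 in Control, 11.2, 16.1 and 12.8 in SCI-vehicle, with 17.3, 19.8 and 18.3 in SCI-inosine. Its mucosa CPM was 19.9, 13.3 and 16.3 in Control, 21.3, 22.3 and 24.3 in SCI-vehicle, with 16.9, 18.1 and 19.2 in SCI-inosine. In detrusor its 3 groups did not overlap at all, with SCI-inosine in the middle, and in mucosa SCI-inosine lay within the Control range. For this member the edgeR adjusted p against SCI-vehicle was 0.952 in detrusor and 0.889 in mucosa. The SCI-vehicle libraries helped to choose the members and were extreme there by choice, so nothing is read from the direction of these 5.

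Another of the 5 had small spread in every group. Its detrusor CPM was 28.3, 29.4 and 25.6 in Control, 18.7, 18.2 and 18.9 in SCI-vehicle, with 20.9, 21.0 and 22.4 in SCI-inosine. Its mucosa CPM was 21.9, 23.6 and 21.4 in Control, 27.1, 27.1 and 26.1 in SCI-vehicle, with 23.9, 23.0 and 23.1 in SCI-inosine. The middle position of SCI-inosine was complete in detrusor, where it overlapped neither group. In mucosa its libraries lay in the upper part of the Control range or just above it. For this member the edgeR adjusted p against SCI-vehicle was 0.952 in detrusor and 0.913 in mucosa. A further member of the 5 had only 1 to 7 counts a library. In the others the SCI-inosine mean lay above Control in detrusor and below Control in mucosa.

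SCI-inosine was also compared with Control and SCI-vehicle by edgeR's quasi-likelihood test over all 15740 genes, with p-values adjusted by Benjamini-Hochberg. Of the members, 0 passed an adjusted p of 0.05 in SCI-inosine against Control in detrusor (0.273% of all genes in the window did), with a smallest adjusted p of 0.130, while 23 had an unadjusted p under 0.05, all lower (5.85% of all genes were lower at that level). DESeq2 called 6 of the 71 members to which it gave an adjusted p, all lower (0.970% of all window genes with an adjusted p were called lower). In mucosa 0 members passed by either tool (0.00% of all genes by edgeR), with a smallest edgeR adjusted p of 0.829, and 13 had an unadjusted p under 0.05, all higher (2.33% of all genes). Against SCI-vehicle 0 members passed by either tool in detrusor (0.00% of all genes by edgeR) or in mucosa (0.00649%), with 3 members (4.41% of all genes) and 5 members (5.50%) at an unadjusted edgeR p under 0.05. These comparisons again share libraries with the rule.

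ENSRNOG00000061982 had a fitted log2 fold change of -2.15 (SE 0.54) in SCI-inosine against Control in detrusor, with an edgeR adjusted p of 0.166 and a DESeq2 adjusted p of 0.0216. For ENSRNOG00000054319 it was -0.91 (SE 0.38, edgeR adjusted p = 0.332) in detrusor and 1.28 (SE 0.46, edgeR adjusted p = 0.934) in mucosa. Neither passed by edgeR. Single libraries moved these values, to -1.42 for ENSRNOG00000061982 in detrusor without Control detrusor replicate 2. For ENSRNOG00000054319 in detrusor it was -0.59 without SCI-inosine detrusor replicate 2 and -1.37 without SCI-inosine detrusor replicate 1.

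The rule had not used the tissue difference within SCI-inosine, apart from the filter and the window. The p-values are not free of the rule, since the spread came from all 18 libraries, including the 12 that chose the members. In edgeR's model of all 18 libraries, 31 members differed between SCI-inosine mucosa and SCI-inosine detrusor at an adjusted p under 0.05, 12 higher in mucosa (21.4% of all genes) and 19 lower (20.1%). In this model the 31 were close to the background share, at 41.5% of all genes in either direction. A fit of the 6 SCI-inosine libraries only called 17 of 79 members, against 4806 of the 15740 genes tested. The share was thus lower among members in that fit, and no test of these shares was made. In the model of all 18 libraries, the fitted log2 fold change had a median of -0.04 over the members and 0.09 over all genes. There 39 members lay above 0 and 40 below.

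The call with the smallest p belonged to the second most abundant member. Its detrusor CPM was 261, 334 and 277 in Control, 224, 245 and 247 in SCI-vehicle, with 294, 281 and 289 in SCI-inosine. Its mucosa CPM was 116, 118 and 111, then 146, 143 and 121, then 179, 146 and 152 in the same order of groups. The SCI-inosine tissues did not overlap, with mucosa lower by a log2 fold change of -1.27 (SE 0.14, edgeR adjusted p = 7.94e-06). Its SCI-inosine detrusor libraries lay within the Control range, and its SCI-inosine mucosa libraries lay above Control and reached down to the top of the SCI-vehicle range.

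ENSRNOG00000054319 also differed between the tissues of SCI-inosine, with a log2 fold change of -2.45 (SE 0.45, edgeR adjusted p = 0.000434). For ENSRNOG00000061982 it was -1.54 (SE 0.64, edgeR adjusted p = 0.0617), which became -2.39 (adjusted p = 0.0276) without SCI-inosine mucosa replicate 3 and -1.79 (adjusted p = 0.0444) without SCI-inosine detrusor replicate 1. Among the 12 calls higher in mucosa, the one with the smallest p had detrusor CPM of 17.9, 13.4 and 18.9 and mucosa CPM of 47.6, 40.6 and 49.3 in SCI-inosine, a log2 fold change of 1.04 (SE 0.20, edgeR adjusted p = 0.000599). In that member the tissues did not overlap in any condition.

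The calls were also counted by the order of the tissues in Control. By mean CPM, 36 members were higher in Control detrusor and 43 higher in Control mucosa. Of the 36, 18 were called lower in mucosa in SCI-inosine (against 65.9% of all window genes of that order) and 0 higher (0.282% of all). Of the 43, 12 were called higher (27.9%, against 27.7% of all) and 1 lower (2.33%, against 6.42% of all). With the order taken on the TMM scale of the fit, 19 of 63 members higher in Control detrusor were called lower (30.2%, against 41.7% of all) and 2 higher (3.17%, against 1.07% of all). Of 16 members higher in Control mucosa, 10 were called higher (62.5%, against 39.5% of all) and 0 lower (0.908% of all). No test of these shares against all genes was made. With 0.5 CPM added to each mean, the 4 members whose Control level was over 4-fold higher in detrusor were among the first 12 by summed change. On that scale it was over 4-fold higher in mucosa for 0 members. No share over all genes is given for these 2 counts.

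The rule chose members that were lower in detrusor and higher in mucosa in SCI-vehicle than in Control. How many members change their tissue order depends on the scaling. By CPM, 25 of the 36 members higher in Control detrusor were higher in mucosa in SCI-vehicle, and 11 of these 25 were higher in mucosa in SCI-inosine. With library sizes scaled by TMM, edgeR's trimmed mean of M-values, 63 members were higher in Control detrusor, 36 of these were higher in mucosa in SCI-vehicle, and 24 of the 36 in SCI-inosine. TMM moved the mucosa minus detrusor difference of all genes by a median of -0.51 in Control, -0.47 in SCI-vehicle, with -0.39 in SCI-inosine. By CPM the median difference over members was 0.06 in Control, 0.80 in SCI-vehicle, with 0.31 in SCI-inosine, against 0.56, 0.60 and 0.47 over all genes in the window. The SCI-inosine value of a member lay between its Control and SCI-vehicle values in 65 of 79 members. The member counts in this paragraph share the Control and SCI-vehicle libraries that chose the members. No share over all genes is given for them, and nothing is read from them.

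**Figure D4:**
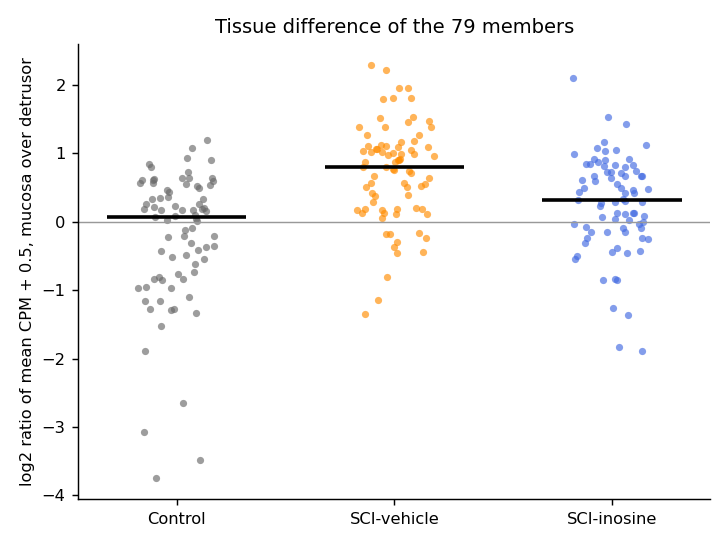
Each point is 1 of the 79 members, and the vertical axis is the log2 ratio of mean CPM + 0.5 in mucosa over detrusor in Control, SCI-vehicle and SCI-inosine. Black lines mark medians at 0.06, 0.80 and 0.31, and points are spread sideways only for visibility.

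Without overlap between the 3 libraries of each tissue, by CPM, 30 members lay higher in mucosa in Control (54.5% of all genes in the window) and 30 lower (11.7%). In SCI-vehicle the counts were 58 higher (55.0%) and 8 lower (13.3%), and in SCI-inosine 34 higher (44.9%) and 6 lower (11.2%). With TMM, 5 members lay higher (29.2% of all genes) and 52 lower (26.7%) in Control. By the same scaling 42 lay higher (33.1%) and 17 lower (26.8%) in SCI-vehicle, and 16 higher (26.8%) and 20 lower (22.5%) in SCI-inosine. The split between higher and lower in Control and in SCI-inosine therefore turned with the scaling.

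The difference between tissues of SCI-inosine against Control was tested as an interaction in edgeR's model of 18 libraries. Of the members, 0 passed an adjusted p of 0.05 (0.00% of all genes), with a smallest adjusted p of 0.264. At an unadjusted p under 0.05 there were 33, all with a change from Control that was higher in mucosa than in detrusor (4.48% of all genes). The Control libraries of this test also chose the members.

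Some libraries stood apart. Over 511 genes with a Control mucosa level above 50 CPM and over 4 times that in Control detrusor, SCI-vehicle detrusor replicate 1 stood 21.5% of the way from the Control detrusor level to the Control mucosa level. The other SCI-vehicle detrusor libraries stood at 1.90% and 1.22%, the SCI-inosine detrusor libraries at 3.14%, 9.56% and 8.11%, and Control detrusor between -1.97% and 1.25%. Over 217 genes higher in Control detrusor by the same limits, the mucosa libraries stood between -7.99% and 15.3% of the way to detrusor, with the highest in SCI-inosine replicate 1. SCI-inosine detrusor replicate 2 had counts on 14126 genes, against 16475 to 17842 in the other detrusor libraries.

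The levels of the members are set beside these values. The median over members of log2(CPM + 0.5) minus the Control mean was -0.39, -0.41 and -0.59 in SCI-vehicle detrusor replicates 1 to 3, and -0.58, -0.42 and -0.61 on the TMM scale. Replicate 1, the library at 21.5%, was thus closest to replicate 2 by CPM and to replicate 3 by TMM. By CPM the median was -0.17, -0.38 and -0.28 in SCI-inosine detrusor. In mucosa it was 0.31, 0.42 and 0.33 in SCI-vehicle, with 0.17, 0.07 and 0.12 in SCI-inosine. Without SCI-vehicle detrusor replicate 1, the 79 members had a median log2 difference of -0.52 in detrusor.

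**Figure D5:**
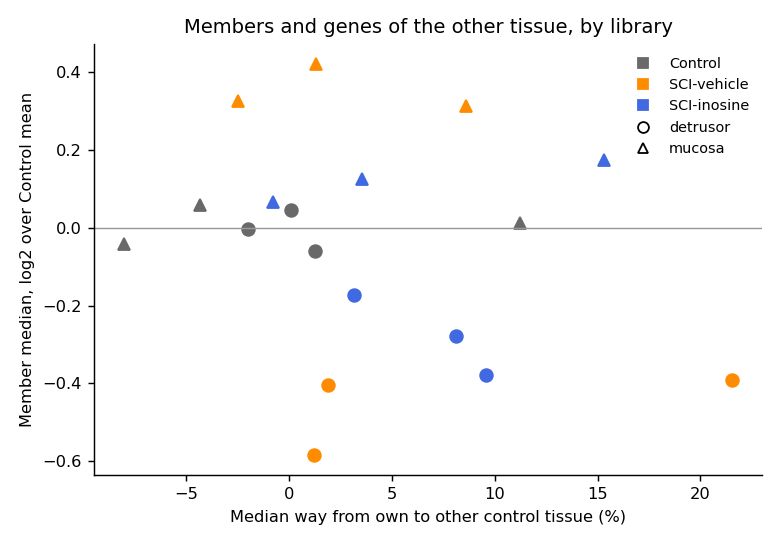
Each point is 1 library, with circles for detrusor and triangles for mucosa. The horizontal axis is the median percentage of the way from the Control level of its own tissue to that of the other tissue, and the vertical axis is the median over the 79 members of log2(CPM + 0.5) minus the Control mean of the tissue. SCI-vehicle detrusor replicate 1, at 21.5%, has a member median of -0.39.

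The list itself depended on these libraries. Without SCI-vehicle detrusor replicate 1 the rule gave 252 members, which held all 79. SCI-inosine lay below Control in detrusor without overlap in 41 of the 252 (16.3% of them, against 6.00% of all genes in the window). It lay above Control in mucosa without overlap in 51 of the 252 (20.2% of them, against 4.23% of all genes). The Control libraries helped to choose these members too. Without SCI-inosine detrusor replicate 2, SCI-inosine lay below Control in detrusor in 31 of the 79 (8.40% of all genes in the window) and above SCI-vehicle in 34 (10.8%). Without SCI-inosine mucosa replicate 1, it lay below SCI-vehicle in mucosa in 44 of the 79 (20.2% of all genes), and the median of SCI-inosine minus Control in mucosa was 0.07. The part of these libraries in the results was not tested.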

How the data were processed

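Total RNA of 18 bladder samples was depleted of ribosomal RNA and sequenced as paired-end stranded libraries. The authors deposited whole-number counts per gene, adding the counts of separate flow cells per sample, without normalization. The submitters' processing notes name Trim Galore 0.6.10, STAR 2.7.10a, SAMtools 1.17, featureCounts 2.0.3, FastQC 0.11.9, MultiQC 1.13 and the build Rnor_6.0. The annotation release and the strand setting of the counting are not given in the sources used here, so reads of overlapping or antisense genes may not be told apart. The authors' comparisons used DESeq2.

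Each library was placed in its group by its label, and the table held 0 columns of other samples and 0 rows without a gene. CPM was computed on column totals. The rule for the members, and the gene lists, were chosen with earlier results of these data known. Tests covered genes above 1 CPM in 3 or more libraries and used edgeR 4.0.16 (R 4.3.3) on TMM-scaled counts with the quasi-likelihood F test, two-sided, and Benjamini-Hochberg adjustment over 15740 genes. SCI-inosine was compared with Control and SCI-vehicle in fits of the 9 libraries of a tissue, and the tissues in 1 model of 6 groups. The biological coefficient of variation was 26.5% in detrusor, 20.0% in mucosa and 23.1% over both. The scripts were tested on simulated data with known changes. DESeq2 1.42.0 was an alternative. The rule for named genes required a symbol, so it could name none, gene and marker lists were not run, and the identifiers printed were picked by summed change.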

Additional observations from a re-analysis of the deposited data

Results flagged for a closer look

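In 2 members the 3 SCI-inosine libraries lay below every Control library in detrusor and above every Control library in mucosa, opposite sides in the 2 tissues. The Control libraries helped to choose the members, so nothing is read from these directions. One was the third member by summed change, with low counts. Its CPM in detrusor was 5.77, 16.5 and 5.12 in Control and 3.08, 1.84 and 3.02 in SCI-inosine, and in mucosa 0.643, 0 and 0.447 in Control and 2.34, 0.922 and 1.94 in SCI-inosine. The other was among the 6 most abundant members, with detrusor CPM of 75.8, 77.2 and 75.3 in Control and 72.1, 66.6 and 72.8 in SCI-inosine, and mucosa CPM of 111, 110 and 113 in Control and 118, 116 and 117 in SCI-inosine. Of all genes in the window, 0.195% met both conditions. The difference between tissues passed an adjusted p of 0.05 in edgeR's interaction test for 0 members, and 33 had an unadjusted p under 0.05.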

How the results depend on the processing

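The number of members was 98 with TMM-scaled library sizes (55 shared with the 79) and 88 with DESeq2 size factors (53 shared), 88 over every gene with a count, 62 with more than 1 CPM in all 18 libraries, 79 without a window and 75 with a 4-fold window. Leaving out 1 library gave 102 to 252 members, since fewer libraries make groups without overlap easier to reach; it was over 1.5 times the count without Control detrusor replicates 1 (140) and 3 (148), SCI-vehicle detrusor replicate 1 (252), Control mucosa replicates 1 (163) and 3 (144), and SCI-vehicle mucosa replicates 1 (119), 2 (124) and 3 (179). Members called in SCI-inosine against Control in detrusor numbered 0 by edgeR (46 of all genes tested), 6 by DESeq2 (349 genes) and 1 in a model of all 18 libraries (130 genes). At an unadjusted edgeR p under 0.05 there were 23 (2145 genes). At an unadjusted p the other counts were 13 (SCI-inosine against Control, mucosa, 787 genes), 3 (against SCI-vehicle, detrusor, 689 genes) and 5 (against SCI-vehicle, mucosa, 870 genes). The 31 calls between the tissues of SCI-inosine (6726 of all genes tested) became 17 (4806 genes) in a fit of the 6 SCI-inosine libraries only. They became 20 to 35 when 1 library was left out, with 20 (5442 genes) without SCI-inosine mucosa replicate 3. In SCI-inosine against SCI-vehicle, where neither gene passed, leaving out 1 library turned the sign for both: ENSRNOG00000061982 ran from -0.050 to 0.48 in detrusor (0.22 with all libraries) and from -1.01 to 0.27 in mucosa (-0.14), and ENSRNOG00000054319 from -0.055 to 0.75 in detrusor (0.41) and from -0.49 to 0.16 in mucosa (-0.06). In detrusor, SCI-inosine lay below Control without overlap for 22 members (925 of the 15405 genes in the window). That became 38 members (1782 genes) without SCI-inosine replicate 1 and 34 members (1862 genes) without Control replicate 3. Above SCI-vehicle without overlap were 15 members (878 genes). There were 23 members (2317 genes) without SCI-vehicle replicate 1 and 26 members (1398 genes) without SCI-inosine replicate 3. The cause was not tested.

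With the replicate number as a block, 0 members passed in each of the 4 comparisons of SCI-inosine within a tissue and 31 between its tissues (29 shared); over all genes tested, SCI-inosine against Control in detrusor went from 46 to 75 calls. Correlations of same-numbered deviations ran from -0.14 to 0.47 and were over 0.1 for all 3 numbers in 0 comparisons. With only 3 numbers, they cannot show whether same-numbered mucosa and detrusor libraries came from one animal.

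Low counts limit 20 members, with fewer than 10 counts in at least 1 library of the rule. One library decides many no-overlap calls.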
